A study of Mus musculus with 2 samples.

Results

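The genes described here encode the non-collagen core of the basement membrane: the laminin chains Lama2, Lama4, Lama5, Lamb1, Lamb2 and Lamc1, the nidogens Nid1 and Nid2, and the heparan sulfate proteoglycans Hspg2 (perlecan) and Agrn (agrin). They were taken by name, after Ensembl identifiers were matched to mouse symbols, and all 10 were listed among the 17646 genes of the deposited tables. The tables come from RNA sequencing of embryonic mouse heart at day 13.5 (E13.5), with 1 library from wild-type embryos (WT) and 1 from embryos without the splicing factor Srsf10 (SRSF10-/-), both on a BALB/c strain background. The labels do not give the kind of knockout allele, the sex of the embryos or how many hearts went into a library. The comparison asks how the level of these transcripts differs between a heart with and a heart without Srsf10.

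A basement membrane is the thin sheet of matrix on which endothelium, endocardium and epicardium rest and which wraps each cardiomyocyte and smooth muscle cell. Laminins are assembled inside the cell as trimers of an alpha, a beta and a gamma chain, are secreted, and polymerise on the cell surface, where integrins and dystroglycan hold them. Nidogens bridge this laminin network to the network of collagen IV, and perlecan and agrin add heparan sulfate chains that bind growth factors and further tie the sheet to the cell. The alpha chain sets which receptors a trimer binds, and the gamma chain Lamc1 is part of most trimers.

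The WT library held 39.6 M uniquely mapped reads and the knockout library 38.9 M. Srsf10 had 35.3 RPKM (reads per kilobase of listed gene length and per M library reads) in the WT heart and 1.45 RPKM in the knockout heart. Cardiomyocyte genes marked both libraries as heart, with Actc1, cardiac actin, at 6350 and 5799 RPKM. The libraries also differ in sex-linked RNA: 4 Y-linked genes had 2943 reads in the WT library and 7 in the knockout library, so sex and genotype cannot be told apart. With 1 library per group there is no replicate check, and no difference was tested. Fold values are ratios of reads per library read, and their 95% intervals are exact binomial intervals that cover counting error only. In whole hearts, fewer cells of a type and less RNA per cell cannot be told apart.

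The basement membrane genes were abundant and close to equal in both hearts. Together they took 0.414% of all reads in the WT library (163926 reads) and 0.390% in the knockout library (151472 reads). In the WT heart their levels ran from 13.4 RPKM for Lama2 to 102 RPKM for Lamc1, and reads covered at least 96.46% of the listed length of every member in either library. Of the 10 genes, 9 were lower in the knockout heart, beside 51.8% of all genes, and Hspg2 was higher. Sizes were counted by a 25% rule: a gene counts as lower or higher when RPKM + 1 in one library is at least 25% above that in the other. No member passed it, beside 6.98% of all genes on the low side and 6.95% on the high side of the knockout heart. Among genes with a WT level in the range of the members, 91.0% did not pass it either. A count of 0 in 10 genes is near these shares. The plot of levels shows the same order of the laminin chains in both hearts.

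**Figure D1:**
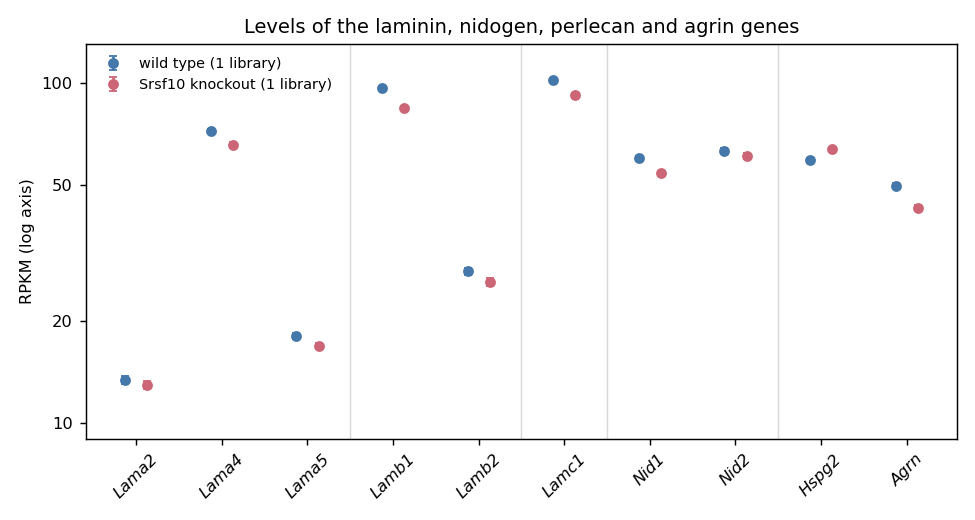
Level of each gene in RPKM on a log axis, in the WT library (blue) and the Srsf10 knockout library (red), with exact 95% Poisson intervals of the read counts, most of them smaller than the points. Lamc1 and Lamb1 are highest and Lama2 is lowest in both libraries, and Hspg2 is the member whose red point lies above the blue point.

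In the WT heart the order of levels per length was Lamc1, Lamb1, Lama4, Nid2, Nid1, Hspg2, Agrn, Lamb2, Lama5 and Lama2. Of the neighbours in that order, only Nid1 (60.1 RPKM, interval 59.1 to 61.0) and Hspg2 (59.4 RPKM, 58.8 to 60.0) had overlapping counting intervals. In the knockout heart Hspg2 stood above both nidogens, and no neighbouring intervals overlapped. The other 9 members kept their order among themselves.

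The start regions of these genes differ much in base composition, and 4 are shown because they belong to the members at the ends of the range: Lamb1 (the highest member with an entry) and Lama2 (the lowest), Hspg2 (the member that was higher in the knockout heart) and Agrn (the member with the largest difference). RefSeq promoter windows on GRCm38.p6 were given for 7 of the 10 members, and the 250 bases before the gene start are printed 5′ to 3′ on the gene's strand. Capitals mark the GC box GGGCGG or its reverse complement CCGCCC, a short motif bound by SP factors. Agrn has 2 windows in the table, of which the one farthest upstream is given.
Lamb1 (chr12:31265043-31265292, + strand): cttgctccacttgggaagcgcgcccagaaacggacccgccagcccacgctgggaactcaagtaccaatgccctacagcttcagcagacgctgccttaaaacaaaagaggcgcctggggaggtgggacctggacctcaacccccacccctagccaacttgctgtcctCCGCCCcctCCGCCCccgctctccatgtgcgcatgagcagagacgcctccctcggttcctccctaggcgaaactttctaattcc
Lama2 (chr10:27616943-27617192, - strand): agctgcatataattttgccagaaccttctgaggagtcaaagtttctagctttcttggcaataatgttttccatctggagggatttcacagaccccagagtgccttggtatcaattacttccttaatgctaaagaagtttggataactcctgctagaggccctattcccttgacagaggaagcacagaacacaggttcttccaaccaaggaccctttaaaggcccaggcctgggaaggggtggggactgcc
Hspg2 (chr4:137468553-137468802, + strand): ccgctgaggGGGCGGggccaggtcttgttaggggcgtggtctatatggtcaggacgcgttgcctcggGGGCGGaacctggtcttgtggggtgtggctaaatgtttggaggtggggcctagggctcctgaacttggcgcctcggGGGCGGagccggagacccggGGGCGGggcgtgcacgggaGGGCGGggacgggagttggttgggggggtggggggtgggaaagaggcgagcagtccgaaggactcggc
Agrn (chr4:156197489-156197738, - strand): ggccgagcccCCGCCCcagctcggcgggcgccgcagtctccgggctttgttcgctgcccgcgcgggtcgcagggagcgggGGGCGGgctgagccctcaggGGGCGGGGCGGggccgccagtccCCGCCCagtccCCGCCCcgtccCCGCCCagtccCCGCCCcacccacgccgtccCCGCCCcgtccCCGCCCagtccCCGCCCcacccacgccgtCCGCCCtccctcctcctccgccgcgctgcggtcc

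These windows hold 2 GC boxes before Lamb1, 5 before Hspg2, 12 before Agrn and none before Lama2, counted on both strands with overlaps allowed. Their G and C content is 62.0%, 70.0%, 83.6% and 47.2%, beside a median of 52.0% over windows of the same length, 1 for each of 27025 genes, of which 32.9% hold a GC box. Lama5, at 18.0 RPKM in the WT heart, has 4 GC boxes, Nid1 has 1 and Lamb2 has none. The matches describe these letters only. Hspg2 and Agrn, with the most GC boxes among the 4, lay at opposite ends of the members' log2 ratios, 0.10 and -0.21.

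Among the alpha chains, Lama4 made up most of the RNA in both hearts. Lama4 (ENSMUSG00000019846, chromosome 10), the chain of vessel and muscle basement membranes, had 72.1 RPKM in the WT heart and 65.7 in the knockout heart, 1.097-fold lower (1.07 to 1.12). Lama5 (ENSMUSG00000015647, chromosome 2), the broadly expressed chain of epithelial and vessel sheets, had 18.0 and 16.8 RPKM, 1.07-fold lower (1.04 to 1.11). Lama2 (ENSMUSG00000019899, chromosome 10), whose loss causes a congenital muscular dystrophy, had 13.4 and 13 RPKM. The WT level of Lama2 was 1.03 times that in the knockout heart (0.992 to 1.07), an interval that holds equality.

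By RPKM, Lama4 was 69.7% of the summed alpha chains in the WT heart and 68.8% in the knockout heart, with Lama5 at 17.4% and 17.6% and Lama2 at 12.9% and 13.6%. The ratio of Lama2 to Lama4 was 1.06 times as high in the knockout library as in the WT library (1.02 to 1.11), and that of Lama5 to Lama4 1.02 times (0.985 to 1.06), which counting error alone does not separate from 1.

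Lamb1 and Lamc1, the beta and gamma chains of most embryonic laminins, were the most abundant members. Lamb1 (ENSMUSG00000002900, chromosome 12) had 96.5 RPKM (22108 reads) in the WT heart and 84.2 RPKM (18948 reads) in the knockout heart, 1.15-fold lower (1.12 to 1.17). Lamc1 (ENSMUSG00000026478, chromosome 1) had 102 RPKM (30721 reads) and 92.4 RPKM (27372 reads), 1.1-fold lower (1.08 to 1.12). The difference of Lamb1 was the largest among the laminin chains. Lamb2 (ENSMUSG00000052911, chromosome 9), the beta chain known from the neuromuscular synapse and the kidney filter, had 27.9 and 26.0 RPKM, 1.07-fold lower (1.04 to 1.11). Lamb1 was 77.6% of the summed beta chains by RPKM in the WT heart and 76.4% in the knockout heart, and the ratio of Lamb2 to Lamb1 was 1.07 times as high in the knockout library (1.02 to 1.11).

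Summed over each class, the RNA of the chains that form a trimer lay close together. The alpha chains summed to 104 RPKM in the WT heart beside 102 RPKM for Lamc1, a ratio of 1.02, and the beta chains to 124 RPKM, a ratio of 1.22 to Lamc1. In the knockout heart the sums were 95.5 RPKM for alpha and 110.2 RPKM for beta chains, 1.03 and 1.19 times the level of Lamc1. Each class was lower in the knockout heart, with WT levels 1.08, 1.13 and 1.1 times those of the knockout heart for the alpha, beta and gamma class. These sums hold the members only. Lama1, Lama3, Lamb3 and Lamc3 together had 3.38 RPKM in the WT heart and 3.86 in the knockout heart.

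**Figure D2:**
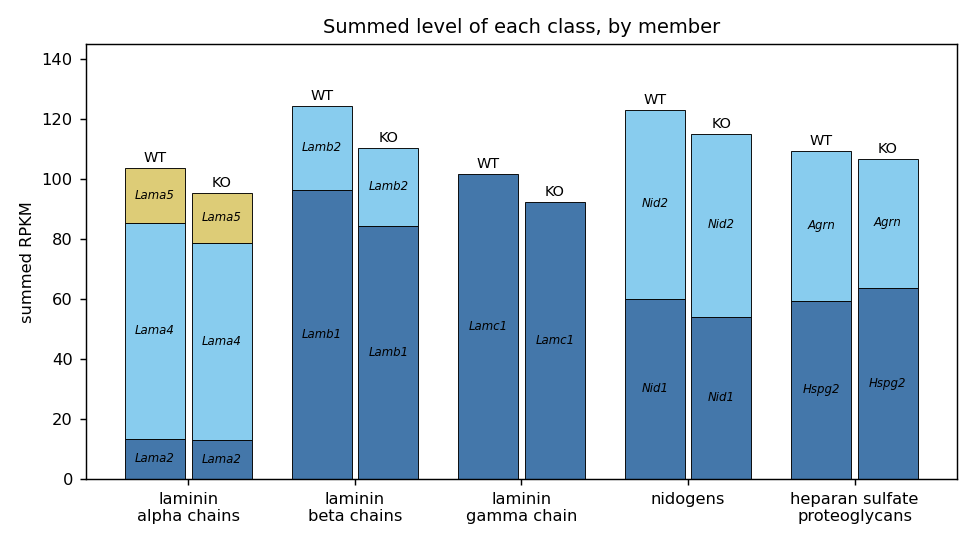
Summed RPKM of the alpha, beta and gamma laminin chains, the nidogens and the heparan sulfate proteoglycans, with a bar for each library (WT left, KO right) split by gene. The alpha bars (104 and 95.5 RPKM) stand close to the Lamc1 bars (102 and 92.4 RPKM), and Lama4 and Lamb1 fill most of their classes.

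The nidogens were present at nearly equal levels. Nid1 (ENSMUSG00000005397, chromosome 13), the classical nidogen, had 60.1 RPKM in the WT heart and 54.2 in the knockout heart, 1.11-fold lower (1.08 to 1.13). Nid2 (ENSMUSG00000021806, chromosome 14), its close relative, had 63.1 and 61.0 RPKM, 1.04-fold lower (1.01 to 1.06). The ratio of Nid2 to Nid1 was 1.05 in the WT heart and 1.12 in the knockout heart, 1.07 times as high (1.03 to 1.11), and by RPKM Nid2 made up 51.2% and 52.9% of the nidogen RNA. By reads, not per length, Nid1 was the larger with 54.1% and 52.4%. In the GENCODE M21 annotation 8.45% of the exonic bases of Nid2 lie over Rtraf on the opposite strand, and the use of strand in counting is not given in the sources used here. For Nid1 and Lama2 the overlap with genes on the opposite strand was 2.06% and 3.86%, and the other 7 members had none.

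Perlecan and agrin differed in opposite directions. Hspg2 (ENSMUSG00000028763, chromosome 4), the large proteoglycan of vessel and muscle basement membranes, had 59.4 RPKM (33374 reads) in the WT heart and 63.8 RPKM (35218 reads) in the knockout heart, 1.07-fold higher (1.06 to 1.09), a direction that was absent after centring on genes of like length. Agrn (ENSMUSG00000041936, chromosome 4), which organises the neuromuscular synapse and binds dystroglycan, had 49.9 RPKM (14354 reads) and 42.9 RPKM (12128 reads), 1.16-fold lower (1.13 to 1.19). Agrn thus had the largest difference of the 10 genes and Hspg2 the opposite sign. The ratio of Agrn to Hspg2 went from 0.840 in the WT heart to 0.673 in the knockout heart, 0.801 times as high (0.778 to 0.824), while the summed level of the pair was 109 and 107 RPKM.

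**Figure D3:**
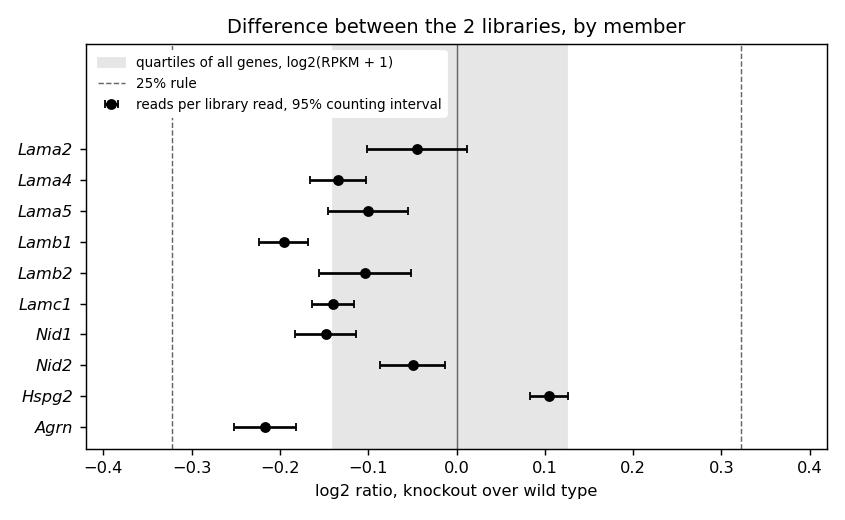
Log2 ratio of reads per library read, knockout over WT, for each gene with its 95% counting interval, the quartiles of all genes as a grey band (on log2 of RPKM + 1) and the 25% rule as dashed lines. Agrn and Lamb1 lie farthest to the left, Hspg2 lies to the right of 0, and no member reaches a dashed line.

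The longest genes had higher ratios in these libraries. Among the 617 longest genes that reached 1 RPKM (listed length 7830 bases or more), the median log2 ratio of RPKM + 1 was 0.10, whereas it was -0.01 over all 12329 genes. Hspg2 (14187 bases), Lama5 (11388 bases) and Lama2 (9710 bases) fall among these longest genes, the last 2 with log2 ratios of -0.09 and -0.04. With the median of genes of like length taken off, the log2 ratio was -0.000127 for Hspg2, -0.20 for Lama5, -0.14 for Lama2 and -0.23 for Agrn. On that scale all 10 members were below 0, Hspg2 only by that small amount. Whether length has a part in the difference between perlecan and agrin was not tested.

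Hspg2 also lies close to Srsf10. In the annotation it is the 24th expressed gene beyond Srsf10 on chromosome 4, and Agrn is the 191st on the same side. The 100 expressed genes nearest to Srsf10, 50 on each side, include Hspg2. Of these, 14% passed the 25% rule on the low side and 6% on the high side, beside 6.98% and 6.95% of all genes. The quartiles of the 100 genes were -0.18 and 0.10 on the log2 scale. The log2 ratio of Hspg2 on the RPKM + 1 scale, 0.10, is at the upper quartile of these neighbours. A part of this position in the values of Hspg2 was not tested.

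**Figure D4:**
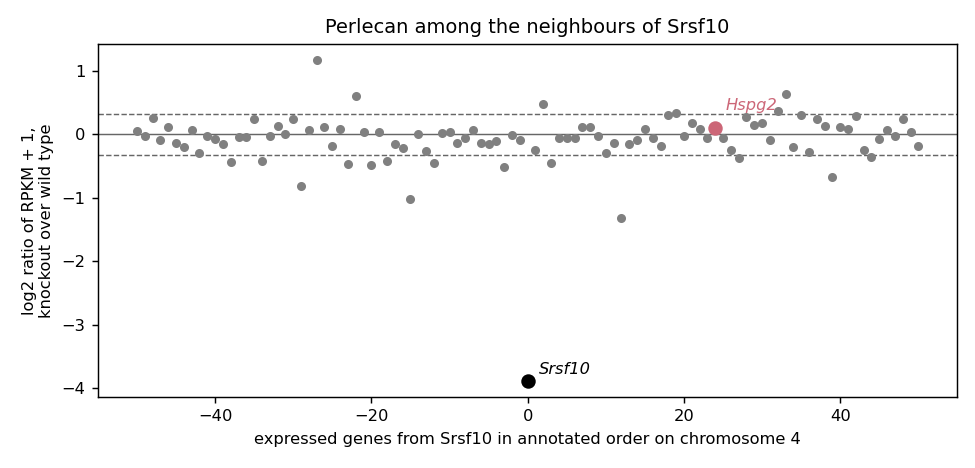
Log2 ratio of RPKM + 1, knockout over WT, of the 50 expressed genes on each side of Srsf10 in annotated order along chromosome 4, with dashed lines at the 25% rule. Hspg2 (red, 24 genes away) lies near 0 among neighbours that spread on both sides, and Srsf10 (black) lies far below at -3.89.

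Counted as a group, the members stayed inside the size rules of 25% and 1.5-fold, as did most of all genes. None of the 10 was at least 1.5-fold lower or higher in the knockout heart on the log2(RPKM + 1) scale, where 1.44% of all genes were lower and 1.52% higher. At 1.1-fold, a rule added after the values were seen, 4 members were lower (Lamb1, Lamc1, Nid1 and Agrn) and none higher, beside 25.3% and 23.2% of all genes. This count was 2 with a pseudocount of 5 or with the ratios centred on the median of all genes, and 7 with centring on genes of like length.

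The direction was shared while the size was small. With 9 of 10 members below 0, the median log2 ratio was -0.12, between -0.21 for Agrn and 0.10 for Hspg2. Over all genes 51.8% were below 0, with a median of -0.01. Among the 4336 genes with a WT level in the range of the members (13.4 to 102 RPKM), 62.5% were below 0, with a median of -0.05 and quartiles of -0.16 and 0.06.

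Collagen genes of the basement membrane were lower in the knockout heart by unequal amounts. Of 6 collagen genes past the filter, none lay above 0, and the median log2 ratio was -0.36. That median was -0.24 over all 8 collagens with no filter. On the low side 4 of the 6 passed the 25% rule, beside 6.98% of all genes. Of these, 1 also passed 1.5-fold, beside 1.44% of all genes. With a pseudocount of 5, 3 of the 6 passed the 25% rule. Col4a1, which with Col4a2 forms the main collagen IV network, had 117 RPKM in the WT heart and 86.2 in the knockout heart, 1.36-fold lower (1.34 to 1.38). Col4a2 had 80.0 and 61.6 RPKM, 1.30-fold lower (1.27 to 1.33). Col4a5, a collagen IV chain of other networks, had 24.8 and 22.8 RPKM, 1.09-fold lower (1.05 to 1.13), less than Lamb1 at 1.15-fold.

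The ratios of Col4a1 and Col4a2 to laminin RNA differed between the libraries. The ratio of Col4a1 to Lamc1, a pair chosen after the values were seen, went from 1.15 in the WT heart to 0.934 in the knockout heart, 0.811 times as high (0.792 to 0.830). That of Col4a2 to Lamb1, also chosen after the values were seen, was 0.882 times as high (0.857 to 0.907). Col15a1, a collagen of the outer basement membrane zone, had 6.96 and 2.5 RPKM, 2.78-fold lower (2.51 to 3.08). Col18a1, the source of endostatin, had 74.0 and 72.7 RPKM, with a WT level 1.02 times that of the knockout heart (0.998 to 1.04). Col4a3 (60 and 76 reads) and Col4a4 (35 and 88 reads) lay below 1 RPKM in both libraries and are not among the 6.

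**Figure D5:**
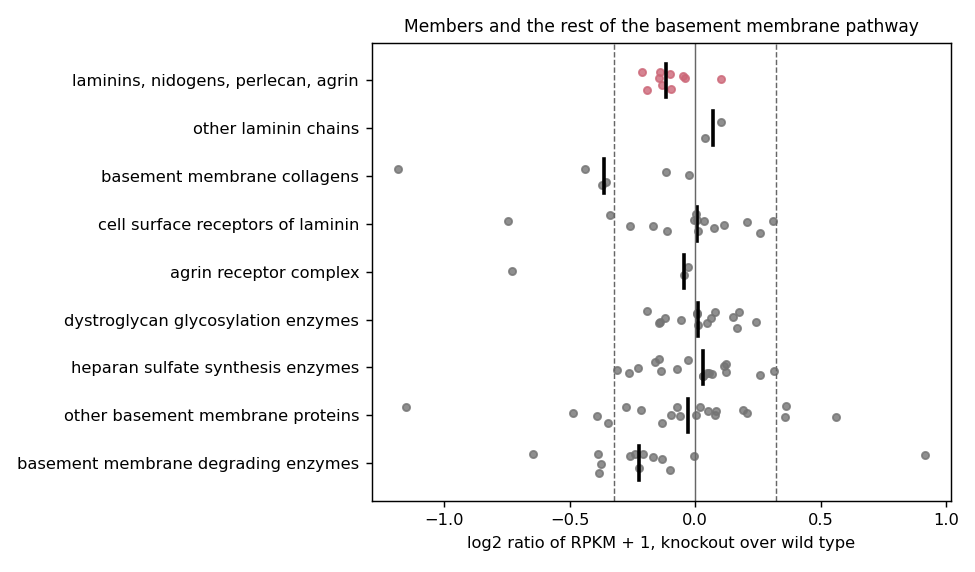
Log2 ratio of RPKM + 1, knockout over WT, of the members (red) and of the genes of 8 related lists (grey) that passed the filter, with the median of each list as a black bar and dashed lines at the 25% rule. The members lie between -0.21 and 0.10, inside the dashed lines, and the collagen median lies at -0.36.

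Cell surface receptors of laminin, listed together with syndecans and glypicans, differed in both directions. Of 15 genes of this list past the filter, 6 were below 0 and 9 above, and the median was 0.01. Gpc1, a glypican, and Sdc3, a syndecan, were the 2 that passed the 25% rule on the low side, beside 6.98% of all genes. On the high side 0 passed, beside 6.95%. With a pseudocount of 5, 1 passed on the low side, and 1 passed on the high side with a pseudocount of 0.1. Scaling to the upper quartile of levels gave 1 on each side. Gpc3, a glypican and the most abundant gene of the list, had 255 and 256 RPKM. Itgb1, the integrin beta subunit common to most laminin-binding integrins, had 196 and 212 RPKM, 1.08-fold higher (1.07 to 1.1), and Dag1, dystroglycan, had 75.3 and 79.3 RPKM, 1.05-fold higher (1.03 to 1.08). Both were picked for their role.

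Genes with larger differences stood at the ends of the receptor list. Itga3, a laminin-binding integrin subunit, had 9.89 and 12.5 RPKM, 1.27-fold higher (1.19 to 1.34) in reads. It missed the 25% rule at a log2 ratio of 0.31 with the pseudocount of 1. Gpc1, a glypican, had 40.2 and 23.6 RPKM, 1.70-fold lower (1.63 to 1.78), with 22.8% of its 31-base words also found in other annotated genes, which makes a count of unique reads less certain. Sdc3, a syndecan, had 25.3 and 19.8 RPKM, 1.28-fold lower (1.23 to 1.33). For the members this share was at most 8.40%. In the agrin receptor complex Rapsn, the scaffold of the acetylcholine receptor, had 11.0 and 6.26 RPKM, 1.76-fold lower (1.56 to 2.0). Lrp4, the agrin receptor, had 3.98 and 3.89 RPKM, and the receptor kinase Musk had 0 and 2 reads.

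Enzymes that add sugar chains to dystroglycan, and enzymes that build or trim heparan sulfate chains, did not pass the 25% rule in either direction. These lists had 15 and 18 genes past the filter. Their medians were 0.01 and 0.03. The count of 0 depended on the setting for the heparan sulfate enzymes, of which 1 passed on the high side under 6 of 10 other settings. Pomgnt1, a mannosyl glycan enzyme, had 20.8 and 18.1 RPKM, 1.15-fold lower (1.09 to 1.21), and Pomgnt2 had 4.60 and 5.63 RPKM, 1.22-fold higher (1.08 to 1.39). Sulf2, which trims sulfate from heparan sulfate, had 78.0 and 62.6 RPKM, 0.802 times the WT reads per library read (0.783 to 0.823). B3galt6, which builds the linker of the chains, had 1.54 and 2.16 RPKM, 1.40-fold higher (1.16 to 1.70) in reads, and missed the rule at a log2 ratio of 0.32 with the pseudocount of 1.

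Genes listed as other basement membrane proteins went both ways, with 10 of 20 below 0 and a median of -0.03. Past the 25% rule were 4 on the low side and 3 on the high side, beside 6.98% and 6.95% of all genes. With a pseudocount of 5 these counts were 2 and 1. Sparc, the collagen-binding glycoprotein and the most abundant of them, had 576 and 526 RPKM, 1.1-fold lower (1.08 to 1.11). Smoc2, a relative of Sparc, had 13.2 and 5.38 RPKM, 2.45-fold lower (2.22 to 2.70), and Hapln1, a hyaluronan link protein, had 18.4 and 27.7 RPKM, 1.5-fold higher (1.44 to 1.57).

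Enzymes that degrade the sheet, listed with their Timp inhibitors, were mostly lower: 12 of 13 lay under 0, with a median of -0.23. Past the 25% rule were 4 on the low side and 1 on the high side, beside 6.98% and 6.95% of all genes. With a pseudocount of 5, or among the 10 that reached 5 RPKM, 2 passed on the low side and 0 on the high side. Mmp2, a gelatinase, had 75.8 and 69.1 RPKM, 1.1-fold lower (1.06 to 1.13). Adamts4, an aggrecanase, had 213 and 72 reads, 2.90-fold lower (2.21 to 3.85), and Mmp9, a gelatinase of leukocytes, had 23 and 152 reads, 6.73-fold higher (4.32 to 10.9). Adamts4 (1.23 and 0.422 RPKM) and Mmp9 (0.183 and 1.23 RPKM) reached the filter only in the library where each was higher. Both lay near 1 RPKM, where the pseudocount of 1 holds the log2 ratio small.

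Lama1, Lama3, Lamb3 and Lamc3, chains known mainly from other tissues or stages, were far below the members. Lama3, an alpha chain of epithelial laminin and the highest of these 4 in the WT heart, had 1.08 and 1.14 RPKM, 1.06-fold higher with an interval that holds equality (0.924 to 1.21). Lama1, the early embryonic alpha chain, had 1.02 and 1.17 RPKM, 1.15-fold higher with an interval that also holds it (0.999 to 1.32). Of the 4, 2 passed the filter, with a median log2 ratio of 0.07, and neither passed the 25% rule.

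Markers of the cell types that make basement membranes differed by amounts of their own. Endothelial and endocardial markers summed to 418 RPKM in the WT heart and 407 in the knockout heart (6 of 12 below 0, median 0.02), with Eng, endoglin, at 85.5 and 79.5 RPKM. Cardiomyocyte markers summed to 19427 and 17616 RPKM (9 of 12 below 0, median -0.10). Smooth muscle and pericyte markers summed to 1152 and 1442 RPKM (5 of 10 below 0, median -0.01). Most of that difference lay in Acta2 (818 and 1024 RPKM) and Tagln (84.4 and 157 RPKM). Tagln shares 53.8% of its sequence words with other genes. Cnn1, Smtn and Abcc9 were also higher in the knockout heart. Myh11 (1.47 and 1.35 RPKM), Pdgfrb (19.9 and 17.3 RPKM), Rgs5, Cspg4 and Kcnj8 were lower. Epicardial markers summed to 198 and 222 RPKM (3 of 10 below 0, median 0.24), with Upk3b at 63.2 and 77.1. Fibroblast and cushion mesenchyme markers summed to 887 and 634 RPKM (9 of 10 below 0, median -0.25), with Col1a1, collagen I, at 224 and 148 RPKM. Every marker of these 5 lists had reads in both libraries.

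Marker lists of other cell types also differed. Macrophage and leukocyte markers summed to 80.0 and 105 RPKM (9 of 11 above 0), with Lyz2, lysozyme, at 17.8 and 25 RPKM (32.8% of its 31-base words shared with other genes), and erythroid markers to 3050 and 2851 RPKM (4 of 7 below 0), led by Hbb-y, an embryonic globin. Skeletal muscle markers summed to 140 and 191 RPKM (4 of 5 above 0), a difference that rested on Tnni2, a troponin of fast muscle, at 24.4 and 96.8 RPKM: without it the sums were 116 and 94.5. Ckm, muscle creatine kinase, made up most of these remaining sums, with 102 and 75.1 RPKM. The defining regulators were near 0, with 18 and 2 reads for Myod1, 41 and 18 for Myog and 12 and 0 for Pax7. Schwann cell and neuron markers summed to 12.5 and 12.2 RPKM, with Erbb3 at 3.37 and 3.15 and Foxd3 at 0 reads in the knockout library. Hepatocyte markers summed to 7.18 and 4.45 RPKM, where Afp, alpha-fetoprotein, was 35.6-fold lower (13.6 to 132) with 4 reads in the knockout library. Alb had 88 and 0 reads, Apoa1 19 and 2 and Serpina1a 2 and 0. Apoa2, the most abundant, had 1.90 and 2.09 RPKM. The part of these cell type differences in the values of the basement membrane genes was not tested.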

How the data were processed

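Hearts of E13.5 mouse embryos gave 2 RNA libraries, grouped by the genotype in the labels. The submitters' processing notes name Bowtie 0.12.2 and mm9. The annotation, the read filters and whether counting used strand were not given in the sources used here. The deposited tables hold, per the file headers, counts of uniquely mapped reads per gene, RPKM and the covered share of each gene. RPKM as deposited by the authors could be recomputed from count, length and total to within 2.2e-14. Genes absent from one table entered with 0 reads. Ensembl identifiers gave symbols for 17196 of 17646 genes.

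Log2 ratios of RPKM + 1 (knockout over WT) were taken for the 12329 genes that reached 1 RPKM in a library; adding 1 shrinks the ratio of low genes. Fold values are ratios of reads per library read with exact conditional binomial (Clopper-Pearson) 95% intervals, ratios of ratios have exact conditional intervals and levels exact Poisson intervals. Intervals cover counting error only, because 1 library per group holds no spread between libraries. PCR copies of a molecule carry no identifier and are counted as separate reads, so the intervals may be too narrow even for counting error. With 1 library per group no test was run. The intervals were run on simulated Poisson counts, the model they assume. That check cannot show how they fare with PCR copies or differences between hearts.

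The members and 18 other gene lists (213 of 215 genes listed) were chosen with earlier results of these data known. Named were the members, Srsf10, the most abundant gene of each list and, for pathway lists, the genes with the largest and smallest log2 ratio. A gene of the list of other laminin chains is not reported here. Itgb1, Dag1, Col4a2 and Musk were added for their role, Col4a3 and Col4a4 as the collagens below 1 RPKM, the other genes after their values were seen. Gene order, chromosomes, overlaps and shared 31-base words come from GENCODE M21 (GRCm38) and promoters from RefSeq (GRCm38.p6); neither was joined to mm9 coordinates. The settings varied were the pseudocount (0.1, 5), the filter (none, 5 RPKM) and the scaling, including TMM. Tools were edgeR 4.0.16 (TMM factors only), R 4.3.3, Python 3.11.15, pandas 2.3.3 and SciPy 1.17.1.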

Additional observations from a re-analysis of the deposited data

How the results depend on the processing

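Under 10 other settings of pseudocount, filter and scaling, no member passed the 25% rule or 1.5-fold. Leaving out Hspg2 and Agrn could not raise that count. The filter settings could not change the value of a member, since every member lay above 5 RPKM. TMM scaling changed the members little, as it multiplied the knockout RPKM by 0.999. The median of the members ran from -0.15 to -0.09 (log2), the lowest value, -0.15, after centring on genes of like length. That centring took Hspg2 to -0.000127 from 0.10, since the longest genes lie higher, and no other member turned under any of the 10 settings. Shares by reads, not per length, gave Lama4 56.5% (WT) and 55.6% (KO) and Lama5 26.6% and 26.8% of alpha chains, Lamb1 78.0% of beta chains in the WT library, Nid1 54.1% and 52.4% of nidogens, so that Nid1 led, and Hspg2 69.9% and 74.4% of the proteoglycans. The count of members lower by 1.1-fold ran from 2 to 7. The collagen median was -0.30 with a pseudocount of 5 and -0.24 with no filter. Near 0, 3 list medians turned: other laminin chains to -0.0301 (like length; no chain of that list reached 5 RPKM), heparan sulfate enzymes to -0.0291 (RPKM of at least 5), and other basement membrane proteins to 0.0052 (no filter, and RPKM of at least 5). With 1 library per group no library can be left out. At this depth counting error is wide for genes near 1 RPKM. No paired analysis was possible because each group has 1 library.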

Other observations

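Genes of the Fraser complex, a set of very large proteins that anchor epithelial basement membranes to the tissue below, lay on the other side of the laminins. They were picked after their values were seen. Fras1 had 14.6 RPKM in the WT heart and 19.1 in the knockout heart, 1.30-fold higher (1.27 to 1.34), Frem1 had 6.21 and 8.25 RPKM, 1.33-fold higher (1.26 to 1.40), and Frem2 had 8.62 and 10.1 RPKM, 1.17-fold higher (1.13 to 1.22). Hmcn1, hemicentin, had 7.89 and 9.15 RPKM, 1.16-fold higher (1.12 to 1.2). All 4 are among the longest genes listed, where the median log2 ratio was 0.10. With that median taken off, the log2 ratio of RPKM + 1 was 0.26 for Fras1, 0.26 for Frem1, 0.11 for Frem2 and 0.09 for Hmcn1.

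Pxdn, the peroxidase that crosslinks collagen IV, also picked after its values were seen, had 72.5 RPKM in the WT heart and 59.7 in the knockout heart, 1.21-fold lower (1.19 to 1.24). Genes of the list of laminin receptors, syndecans and glypicans, picked in the same way, lay on both sides. Sdc1, a syndecan, had 17.1 and 14.1 RPKM, 1.21-fold lower (1.14 to 1.29). Itga1 had 12.3 and 14.9 RPKM, 1.21-fold higher (1.15 to 1.27), and Bcam, a receptor of Lama5, had 123 and 142 RPKM, 1.15-fold higher (1.13 to 1.18).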
